A study of Mus musculus with 4 samples.

Results

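The 9 genes described here make, break down or bind retinoic acid: Aldh1a1, Aldh1a2, Aldh1a3, Cyp26a1, Cyp26b1, Cyp26c1, Crabp1, Crabp2 and Rarb. They were chosen with earlier results of these data known. All were read from the single-cell count matrices, where 20719 genes were listed in all and 9 of 9 were listed in each of the 4 libraries. Their levels were followed across marker-gated retina, brain regions, mesenchyme, epithelium and neurons, and none of the 9 was a gate marker. A level is the mean over the cells of a class of the gene's unique molecular identifiers (UMIs) per 10000 UMIs of the cell.

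Retinoic acid is made from vitamin A by the retinaldehyde dehydrogenases ALDH1A1, ALDH1A2 and ALDH1A3, which carry out the last oxidation step. The cytochrome P450 enzymes CYP26A1, CYP26B1 and CYP26C1 oxidise it and so clear it from a tissue, the small proteins CRABP1 and CRABP2 bind it in the cytosol, and the receptor RARB binds it in the nucleus. In the embryonic head the pathway is known for its part in patterning the hindbrain and in forming the eye and the face. Rarb and Cyp26a1 are textbook genes whose transcription retinoic acid itself induces, through a direct repeat of a receptor half-site.

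The upstream sequences of Rarb and Cyp26a1 are shown because, among the members, only these promoters held that repeat. Promoter entries of 300 bases from RefSeq (GRCm38.p6) were matched for 7 of the 9 genes. They were searched on both strands for 2 half-sites, in the same orientation and 5 bases apart. Each half-site could be the common form AGGTCA, the form AGTTCA that both genes below carry, the form GGTTCA that Rarb also carries, or the related form GGGTCA. This repeat was present in 32 of 32851 promoters (0.0974%). Since the search included the forms that Rarb and Cyp26a1 carry, this share does not test how unusual their match is. Below are the 250 bases before each start, 5′ to 3′ along the gene, with the repeat in capitals.
Rarb: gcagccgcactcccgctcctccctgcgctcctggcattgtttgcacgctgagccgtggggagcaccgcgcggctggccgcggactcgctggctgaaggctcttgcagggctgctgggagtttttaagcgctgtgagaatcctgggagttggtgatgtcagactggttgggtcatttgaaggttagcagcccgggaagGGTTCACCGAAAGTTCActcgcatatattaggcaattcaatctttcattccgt
Cyp26a1: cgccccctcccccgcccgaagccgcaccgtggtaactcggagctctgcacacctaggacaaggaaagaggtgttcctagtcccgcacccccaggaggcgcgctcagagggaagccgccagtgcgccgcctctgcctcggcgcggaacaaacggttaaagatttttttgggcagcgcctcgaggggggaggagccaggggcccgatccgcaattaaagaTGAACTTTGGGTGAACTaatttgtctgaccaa
The Rarb sequence is chr14:16575477-16575726, on the minus strand, and its repeat is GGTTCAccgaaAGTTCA at chr14:16575513-16575529, ending 36 bases before the start. The Cyp26a1 sequence is chr19:37697558-37697807, on the plus strand, and its repeat lies at chr19:37697776-37697792 on the opposite strand, where it reads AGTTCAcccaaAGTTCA, and ends 15 bases before the start. Repeats of the same half-sites spaced by 1 base were in 73 promoters (0.222%) and by 2 bases in 88 (0.268%), with no member among them. A match is a description of the letters and not a measure of binding.

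The study compared heads of mouse embryos at E10.5 (embryonic day) that were wild type (WT) or carried a single functional copy of Apcdd1, a membrane protein known as an inhibitor of Wnt signals (Apcdd1+/-). Each genotype had 2 droplet libraries of dissociated, live-sorted cells, and the strain, the design of the allele and the number of embryos per library are not stated in the sources used. Genotype p-values measure only the spread between these libraries, which may be technical. The head tissue was labelled as embryonic brain, but the gates also found mesenchyme, epithelium, eye, blood and vessel cells. Total UMIs per library ran from 55393605 to 96822641. After filtering, 24259 cells remained, 2956 to 9501 per library, with a median of 8934.5 to 17133.5 UMIs per cell. Apcdd1 itself was at 0.813 and 0.520 UMIs per 10000 in Apcdd1+/- replicates 1 and 2 and at 0.703 and 0.644 in WT replicates 1 and 2, so it did not separate the labels. Below, 4 values in a row are always given in that order of libraries. Hindbrain cells with Hox genes entered the libraries unevenly: Hoxb1 gave 0, 264, 88 and 271 UMIs.

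**Figure D1:**
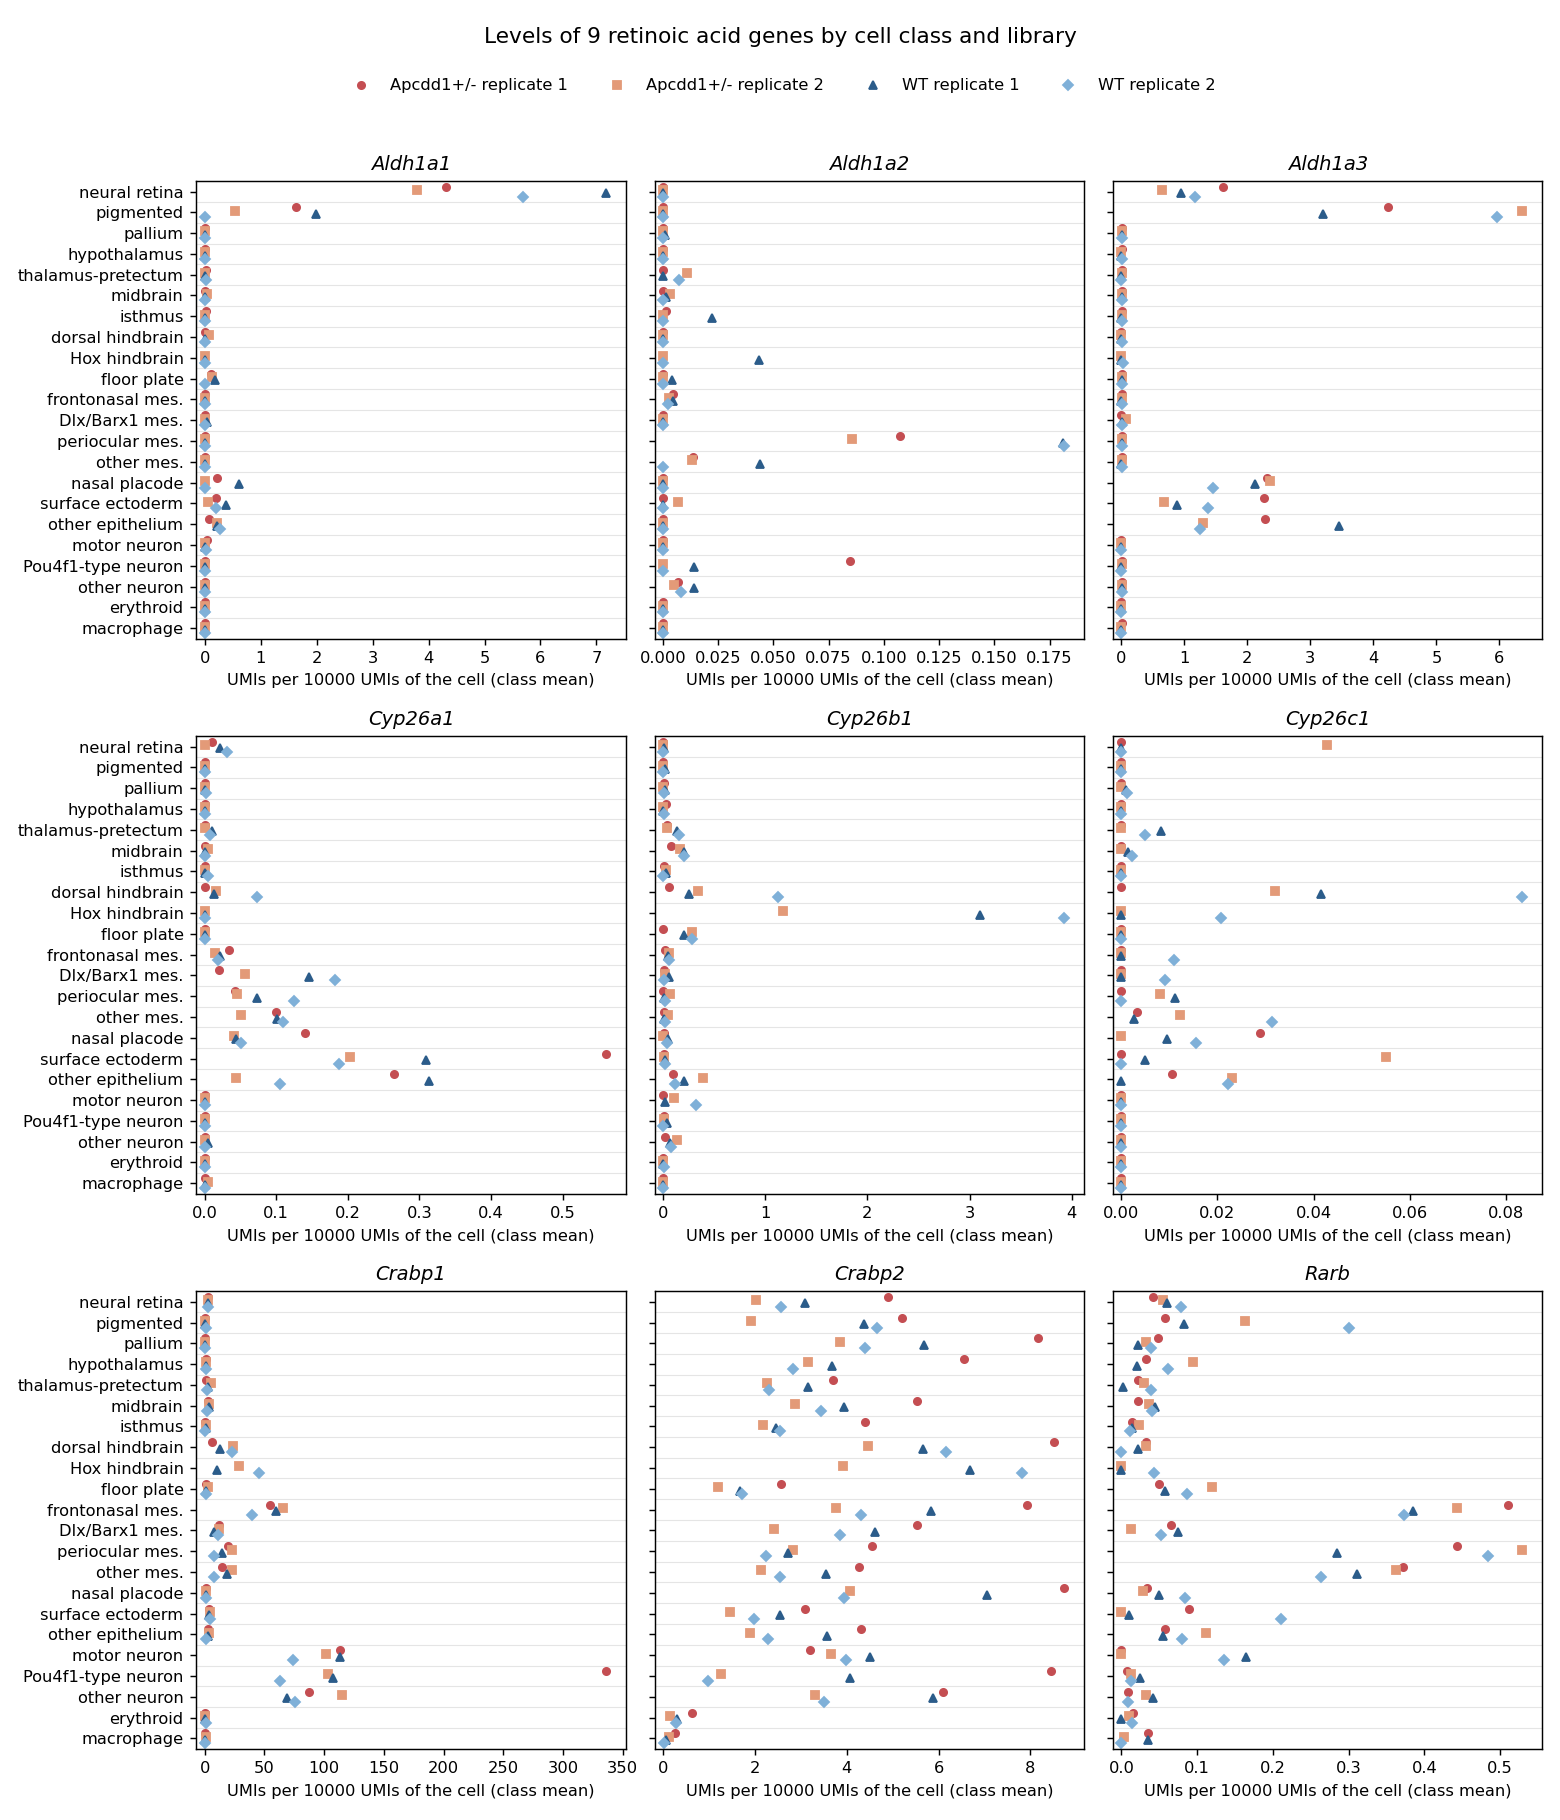
Levels of the 9 genes (horizontal axes, UMIs per 10000 UMIs of the cell, mean over the cells of a class) in 22 cell classes (rows), with 1 point per library where it held at least 10 cells of the class. Aldh1a1 points stand out in neural retina (3.79 to 7.17), Aldh1a3 in pigmented cells and epithelium, Cyp26b1 in Hox hindbrain, Crabp1 in neurons and frontonasal mesenchyme, and Rarb in 3 of the 4 mesenchyme classes.

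Aldh1a1, 1 of the 3 synthesis enzymes (mm10 chr19:20492715-20643465, plus strand), was a retina gene in these heads. Its level in the 352 neural retina cells was 4.31, 3.79, 7.17 and 5.70 UMIs per 10000 (5.24 ± 1.52, SD, n = 4 libraries). The next class, pigmented cells, was at 1.63, 0.542, 1.99 and 0, so the lowest retina library lay above the highest pigmented one. The pallium, the dorsal telencephalon, was at 0.00371. Neural retina held 71.6% of the 3118 Aldh1a1 UMIs. These cells carried the gate's retina markers, with Six6 in 87.5%, Lhx2 in 95.2% and Rax in 67.6% of cells. An Aldh1a1 UMI was found in 35.5% of retina cells, or 26.7% (exact binomial 95% interval 22.1 to 31.7%) when each cell was thinned to 3000 UMIs. Of 166 thinned macrophages, which should lack the gene, 0 had a UMI, which allows a share of up to 2.20%, and the median depths were 12370 UMIs in retina and 17548.5 in macrophages. These intervals cover counting error only.

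Against the mean of 6 other brain regions (pallium, hypothalamus, thalamus-pretectum, midbrain, isthmus and dorsal hindbrain), Aldh1a1 was higher in neural retina by 9.12 on the log2 scale (SE 0.22, adjusted p = 1.43e-53). This and the other class comparisons used edgeR's quasi-likelihood test on UMI sums per class and library with the library as a block and Benjamini-Hochberg adjustment. Of the 9 genes 7 had enough counts to be tested, and 3 were higher and 2 lower in retina, beside 14.8% of all 12280 genes tested. Aldh1a3 was the second of the higher genes (log2 difference 7.90, SE 0.26, adjusted p = 8.38e-43). The other calls were small or rested on few UMIs. Crabp2 was lower by 0.41 on the log2 scale (log2 difference -0.41, SE 0.12, adjusted p = 0.0148). Cyp26a1, with 9 UMIs in retina, was called higher (adjusted p = 0.00832), and Cyp26b1, with 2 UMIs, was called lower (adjusted p = 0.0476). All 3 calls were lost on leaving out 1 library. Cyp26a1 had an adjusted p of 0.146 without WT replicate 1. Crabp2 had 0.101 without Apcdd1+/- replicate 2 and 0.0644 without WT replicate 1. Cyp26b1 had 0.186 without Apcdd1+/- replicate 1, 0.102 without WT replicate 1 and 1.00 without WT replicate 2. Crabp1 and Rarb did not pass (log2 differences 0.43, adjusted p = 0.267, and 0.81, adjusted p = 0.249).

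Aldh1a3, another synthesis enzyme (chr7:66390890-66427517, minus strand), was highest in pigmented cells and in the surface epithelia. Pigmented cells, gated on Mitf, Dct, Pmel, Tyrp1 and Tyr and thus either pigmented retina or melanoblasts, were at 4.23, 6.36, 3.19 and 5.95 (4.93 ± 1.49). An Aldh1a3 UMI was found in 91.1% of these 79 cells and in 66.7% after thinning (55.1 to 76.9%), against 0 of 166 thinned macrophages. Nasal placode was at 2.31, 2.37, 2.12 and 1.45 (2.06 ± 0.421), and epithelium in no finer gate at 2.28, 1.29, 3.46 and 1.26. Surface ectoderm was at 2.27, 0.669, 0.883 and 1.38, and neural retina at 1.61, 0.651, 0.944 and 1.17. The libraries of neighbouring classes in this order overlapped, from pigmented cells down to the oral and pituitary gate (0.888 ± 0.897, 3 libraries). The next class below, mesenchyme with Dlx1 and Barx1, was at 0.0230 and did not overlap with the oral and pituitary gate. The 4 epithelium classes held 55.0% of the 3959 Aldh1a3 UMIs, and retina and pigmented cells 29.6%.

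Within the retina the 2 enzymes took opposite sides. Retina cells were divided by which of 2 lists had more markers with a UMI, and cells with equal numbers were left out. The dorsal markers were Tbx5, Tbx3, Tbx2, Bmp4, Efnb1 and Efnb2 (102 cells). The ventral markers were Vax1, Vax2, Ephb2, Ephb3, Bmpr1b and Pax2 (200 cells). Efnb1 was lower in dorsal retina than in all other kept cells (0.229 against 0.393), as was Ephb3 in ventral retina (0.107 against 0.115). The other markers were higher in their own class. Aldh1a1 was at 15.9, 11, 19 and 14.4 in dorsal retina (15.1 ± 3.32) and at 0.271, 0.0605, 0.355 and 1.39 in ventral retina (0.520 ± 0.595). Dorsal exceeded ventral in 4 of 4 libraries with no overlap, and the log2 difference was 5.38 (SE 0.31, adjusted p = 8.87e-26 in edgeR). Aldh1a3 was at 0.571, 0, 0.472 and 0.580 in dorsal retina and at 2.24, 1.10, 1.49 and 1.75 in ventral retina (1.65 ± 0.479). It was lower dorsally in 4 of 4 libraries, by a log2 difference of -2.19 (SE 0.33, adjusted p = 1.76e-06). These 2 were the members called, beside 1.18% of 12193 genes tested. The test used sums of at least 10 cells per library, since the 20 cells planned were not reached in 1 library, a choice made after seeing the cell numbers.

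The shares of cells followed the levels. Among the 102 dorsal cells, 64 had UMIs of Aldh1a1 alone, 5 of Aldh1a3 alone, 14 of both and 19 of neither. Among the 200 ventral cells, 15 had Aldh1a1 alone, 108 Aldh1a3 alone, 16 both and 61 neither. After thinning, an Aldh1a1 UMI was found in 67.3% of dorsal cells (57.3 to 76.3%) and 8.50% of ventral cells (5.03 to 13.3%), and an Aldh1a3 UMI in 10.9% (5.56 to 18.7%) and 33.5% (27.0 to 40.5%). Dorsal retina alone held 65.7% of all Aldh1a1 UMIs.

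**Figure D2:**
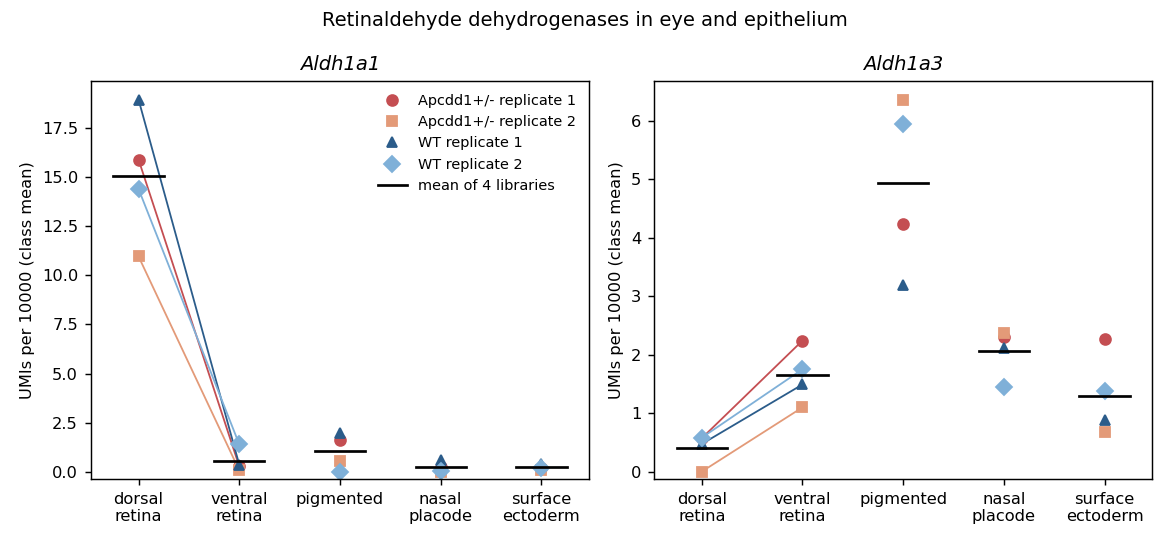
Levels of Aldh1a1 (left) and Aldh1a3 (right) in UMIs per 10000 in dorsal and ventral retina, pigmented cells, nasal placode and surface ectoderm, with 1 point per library, lines joining dorsal and ventral values of a library, and black bars at the mean of 4 libraries. Aldh1a1 falls from 15.1 in dorsal to 0.520 in ventral retina in each library, while Aldh1a3 goes the other way and is highest in pigmented cells.

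Aldh1a1 outside the eye was low and uneven. Nasal placode averaged 0.211, but 1 cell held 94.4% of its Aldh1a1 UMIs in Apcdd1+/- replicate 1 and 1 cell held 100% in WT replicate 1, and 2.31% of the cells had a UMI. Surface ectoderm was at 0.211 ± 0.129 and the floor plate at 0.109 ± 0.0735. Epithelium together was still above mesenchyme for both enzymes (Aldh1a1 log2 difference 5.30, SE 0.43, adjusted p = 2.89e-19, and Aldh1a3 7.88, SE 0.22, adjusted p = 6.62e-49, by edgeR). In that comparison 3 members were higher and 3 lower in epithelium, beside 51.9% of all genes. In the class tests epithelium was nasal placode, surface ectoderm and epithelium in no finer gate, since the oral and pituitary gate had too few cells.

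Aldh1a2, the third synthesis enzyme and the main one of the trunk mesoderm (chr9:71215789-71296243, plus strand), was rare, with 173 UMIs in all. Its level was highest in periocular mesenchyme, gated on markers that include Foxc1, Foxc2, Lmx1b and Tfap2b, at 0.107, 0.0857, 0.181 and 0.182 (0.139 ± 0.0498). These 429 cells held 39.9% of its UMIs. Their lowest library, at 0.0857, lay only just above the highest library of the next class, the Pou4f1 neurons, at 0.0847 (mean 0.0247). A UMI was found in 5.83% of periocular cells, or 2.57% after thinning (1.29 to 4.55%), while the 166 thinned macrophages had 0, which allows up to 2.20%, so the thinned share alone does not separate the classes at this depth. Neural retina had 0 Aldh1a2 UMIs in 352 cells, which allows a share of up to 1.05% of thinned cells, the Dlx1 and Barx1 mesenchyme also had 0 (up to 1.67%), and frontonasal mesenchyme had 10. The gene had too few counts for the class tests.

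Among the enzymes that clear retinoic acid, Cyp26a1 (chr19:37697798-37701536, plus strand) was an epithelium and mesenchyme gene, at low levels. Surface ectoderm was at 0.560, 0.202, 0.309 and 0.187 (0.315 ± 0.172), other epithelium at 0.264, 0.0438, 0.313 and 0.106, and the Dlx1 and Barx1 mesenchyme at 0.0198, 0.0569, 0.145 and 0.182. The libraries of these classes overlapped, and no class stood apart from the next in its order. A UMI was found in 19.5% of surface ectoderm cells, or 7.35% after thinning (4.41 to 11.4%), against 0 of 166 thinned macrophages. The 6 brain regions other than hindbrain gave 6 Cyp26a1 UMIs in 5470 cells. Mesenchyme was above brain progenitors (edgeR adjusted p = 6.87e-20), in a comparison where 59.8% of genes were called and 3 members were higher and 0 lower; several brain regions had 0 UMIs, so no fold is given.

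Within epithelium and within mesenchyme Cyp26a1 differed by class. It was lower in nasal placode than in other epithelium (log2 difference -1.84, SE 0.44, adjusted p = 0.00105). It was higher in epithelium than in mesenchyme by 1.2 (SE 0.26, adjusted p = 5.76e-05), and without Apcdd1+/- replicate 1 this became 0.69 (adjusted p = 0.0516). Frontonasal mesenchyme, gated on markers that include Alx1, Alx4 and Six2, was at 0.0345, 0.0139, 0.0216 and 0.0183 (0.0221 ± 0.00885), below the Dlx1 and Barx1 mesenchyme by a log2 difference of -2.26 (SE 0.49, adjusted p = 0.000697), and without WT replicate 1 this became -2.02 (adjusted p = 0.0550). In Apcdd1+/- replicate 1 the order of these mesenchyme classes was the other way round, so they overlapped. Of 246 surface ectoderm cells, 62 had UMIs of Aldh1a3 alone, 46 of Cyp26a1 alone and 2 of both. These counts were 75, 13 and 7 of 216 nasal placode cells and 84, 27 and 11 of 276 epithelial cells in no finer gate.

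Cyp26b1 (chr6:84571414-84593908, minus strand) was highest in hindbrain cells with Hox genes, though the 2 hindbrain gates held 18.0% of its 3511 UMIs and neural progenitors in no finer gate held 47.1%. The 63 Hox hindbrain cells were gated on markers that include Hoxa2, Hoxb2, Hoxa3, Hoxb3, Hoxd3 and Egr2. Hoxa2, Hoxb2 and Hoxb3 had a UMI in 79.4%, 88.9% and 47.6% of them. For Hoxa3, Hoxd3 and Egr2 the shares were 7.94%, 4.76% and 1.59%. In these cells Cyp26b1 was at 1.17 in Apcdd1+/- replicate 2 and at 3.10 and 3.93 in WT replicates 1 and 2 (2.73 ± 1.41, n = 3 libraries). Apcdd1+/- replicate 1 had no such cell. All 3 values lay above every library of the next class, dorsal hindbrain, at 0.0580, 0.346, 0.256 and 1.13 (0.447 ± 0.470). The lowest of the 3, in Apcdd1+/- replicate 2, came from 20 cells with a median of 0, and 1 cell held 31.4% of their Cyp26b1 UMIs. In WT replicates 1 and 2 the medians were 1.89 and 4.18, and the highest cell held 26.8% and 13.5%. A UMI was found in 58.7% of Hox hindbrain cells, or 50.8% after thinning (37.9 to 63.6%), and in 1 of 166 thinned macrophages (0.602%). Midbrain was at 0.0778, 0.170, 0.209 and 0.210, and the pallium averaged 0.00898.

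Against the other brain regions Cyp26b1 was higher in Hox hindbrain by 5.85 on the log2 scale (SE 0.30, adjusted p = 2.02e-30, edgeR). The Hox hindbrain sums of this comparison came from 3 libraries, while the other regions kept all 4 libraries. It called 2.51% of 12552 genes, with 3 members higher and 0 lower. The other members were Crabp1 (3.81, SE 0.24, adjusted p = 1.81e-24) and Crabp2 (0.94, SE 0.16, adjusted p = 1.38e-05), the latter lost without WT replicate 2 (0.57, adjusted p = 0.0711). The regions set against Hox hindbrain included dorsal hindbrain. Dorsal hindbrain was gated on Msx3, Pax3, Atoh1, Gsx1 and Ptf1a, with a UMI in 95.7%, 94.6%, 19.7%, 6.68% and 0.557% of its cells. Present in all 4 libraries, it was itself compared with the non-hindbrain regions only. This contrast was added after seeing the cell numbers, and its log2 differences have another reference than those for Hox hindbrain. It called 11.4% of 12280 genes and 4 members higher and 0 lower. Cyp26b1 was higher by 3.69 (SE 0.34, adjusted p = 7.4e-16), Crabp1 by 3.75 (SE 0.18, adjusted p = 8.11e-32) and Crabp2 by 0.80 (SE 0.11, adjusted p = 4.01e-09). Cyp26a1 was also called (adjusted p = 6.59e-08), on 0, 6, 4 and 13 UMIs.

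**Figure D3:**
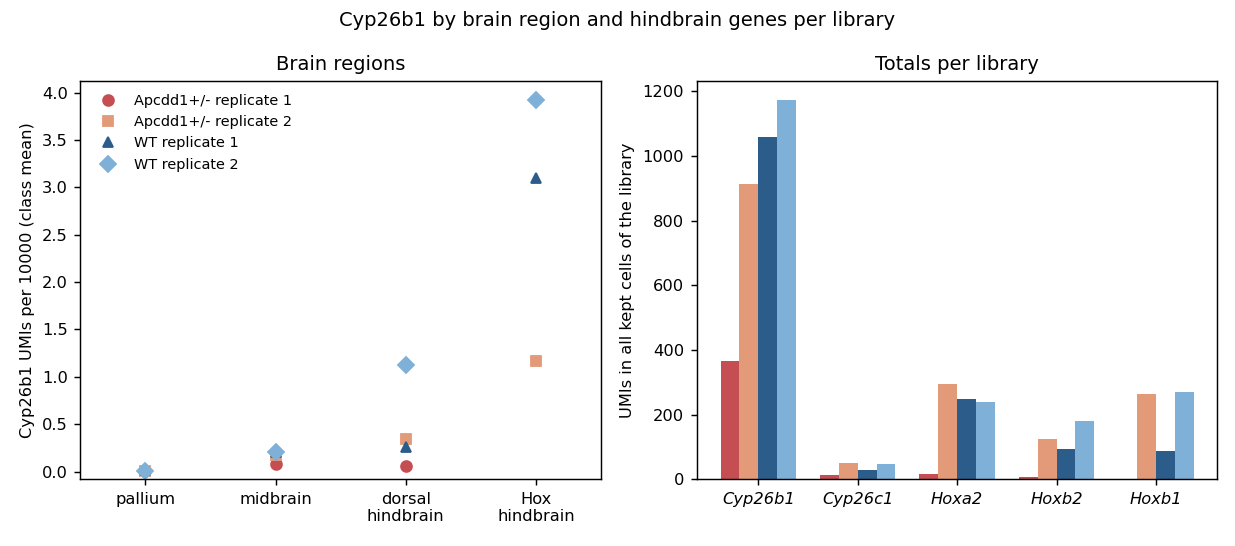
Left, Cyp26b1 level (UMIs per 10000, mean of the cells of a class) in pallium, midbrain, dorsal hindbrain and Hox hindbrain, with 1 point per library of at least 10 cells. Right, UMIs of Cyp26b1, Cyp26c1, Hoxa2, Hoxb2 and Hoxb1 summed over all kept cells of each library. The Hox hindbrain points (1.17 to 3.93) lie above all others, and Apcdd1+/- replicate 1 has 17 Hoxa2 and 0 Hoxb1 UMIs.

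Cyp26c1 (chr19:37685581-37693398, plus strand) lies next to Cyp26a1 on the same strand, with 4399 bases between the genes, and was the rarest member, with 144 UMIs in all (14, 51, 30 and 49). Dorsal hindbrain held 32 of them (22.2%), at 0, 0.0320, 0.0415 and 0.0835 (0.0392 ± 0.0344). The oral and pituitary gate averaged 0.110 over 3 libraries, on 11 UMIs. Dorsal hindbrain cells overlapped with the classes around them in the order. Of 539 dorsal hindbrain cells, 82 carried UMIs of Cyp26b1 alone, 11 of Cyp26c1 alone and 9 of both. Like Aldh1a2, it had too few counts for the class tests.

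Crabp1 (chr9:54764748-54773110, plus strand), which encodes a cytosolic retinoic acid binding protein, was high in neurons and frontonasal mesenchyme. Cranial motor neurons, gated on markers that include Phox2a, Isl1, Tbx20, Slc18a3 and Mnx1, were at 113, 102, 113 and 73.9 (100.3 ± 18.5). A UMI of these markers was found in 58.5%, 72.6%, 49.6%, 8.89% and 0% of the cells, so Mnx1 did not add to the gate. Neurons in no finer gate were at 87.0, 115, 68.9 and 75.9 (86.6 ± 20.1), and frontonasal mesenchyme was at 54.6, 65.7, 59.9 and 39.7 (55.0 ± 11.1). By these means, every library of the neurons in no finer gate lay above every library of frontonasal mesenchyme. The medians over cells had the opposite order in each library. They were 4.24, 13.99, 2.72 and 7.21 in the neurons in no finer gate, far below the means. In frontonasal cells the medians were 54.2, 64.9, 59.5 and 34.8. Cranial motor neurons had medians of 62.7, 74.9, 58.1 and 40.3, also below their means, and below the frontonasal median in WT replicate 1 only. The highest motor neuron held 21.6, 22.0, 12.1 and 25.3% of that class's Crabp1 UMIs in its library. Frontonasal cells held 31.2% of the 457204 Crabp1 UMIs, the 4 mesenchyme gates 39.1% and the 3 neuron gates 40.0%. The pallium was at 0.556, 0.534, 0.536 and 0.580, close to erythroid cells at 0.571.

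A Crabp1 UMI was nearly always found in frontonasal cells, in 99.5% of 1313 cells and in 97.7% after thinning (96.7 to 98.4%). In erythroid cells, which should lack it, the share was 39.3% and after thinning 10.3% (5.61 to 17.0%), and in the pallium 38.1% and 13.2% (11.8 to 14.8%), with median depths of 17673, 18333 and 12967 UMIs. The pallium's share overlapped with the erythroid interval and is read as background. In edgeR's test neurons were above brain progenitors by a log2 difference of 5.85 (SE 0.14, adjusted p = 1.95e-58), and this was the only member called of the 7 tested, beside 67.9% of all genes. Mesenchyme was above brain progenitors by 3.46 (SE 0.13, adjusted p = 1.41e-42). Frontonasal exceeded Dlx1 and Barx1 mesenchyme, at 12.1, 12.3, 7.82 and 10.7, by 2.38 (SE 0.26, adjusted p = 6.41e-12), with 2 members higher and 1 lower beside 6.83% of all genes.

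Crabp1 was also uneven among the Pou4f1 neurons, gated on markers that include Pou4f1, Isl1, Prph and Neurod1. Their mean level was 336, 103, 107 and 62.7, while the median over cells was 349, 5.98, 5.74 and 2.76. The mean lay far above the median in 3 of the 4 libraries, and in Apcdd1+/- replicate 1 it did not. This gate held 46, 79, 70 and 59 cells, and its libraries overlapped with those of the cranial motor neurons.

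By the number of neuron markers found in a neural cell, Crabp1 and Crabp2 parted. With 0, 1 to 2, 3 to 4, 5 to 6 and 7 to 9 of the 9 markers, Crabp1 was at 3.72, 3.27, 5.41, 32.3 and 133, and Crabp2 at 4.37, 4.31, 4.11, 3.75 and 4.8, as means of 4 libraries. The Crabp1 values with 7 to 9 markers, from 104 to 170, lay above all libraries with fewer markers, while the Crabp2 values overlapped throughout.

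**Figure D4:**
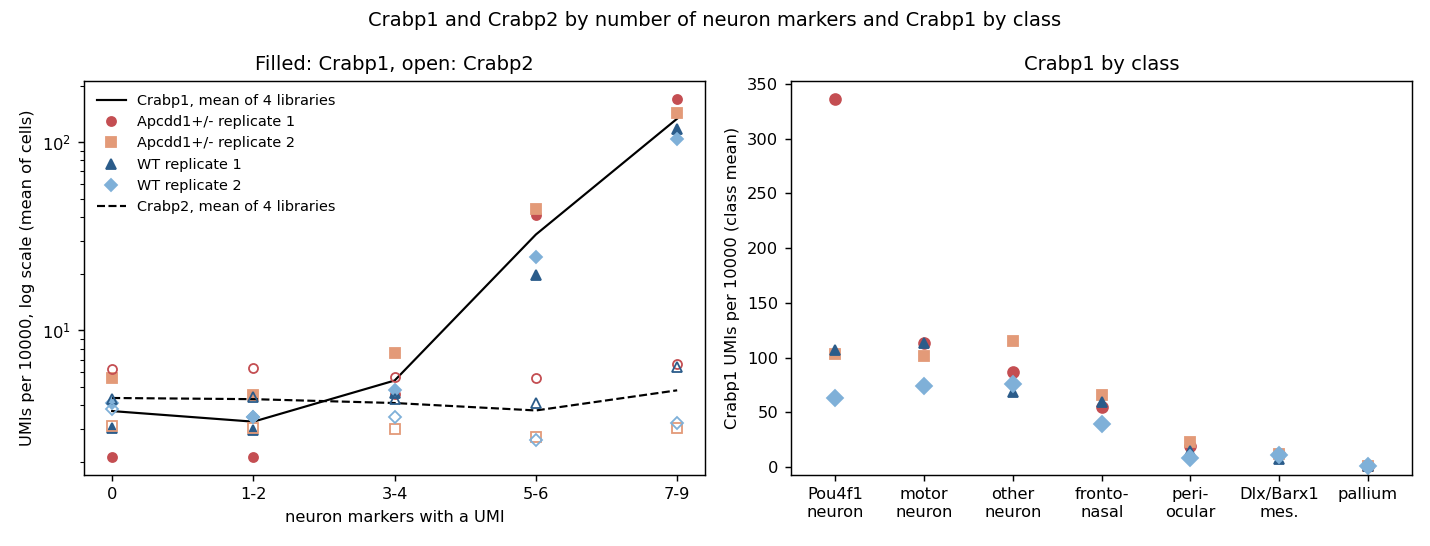
Left, levels of Crabp1 (filled) and Crabp2 (open) in UMIs per 10000 on a log axis by the number of neuron markers with a UMI in a neural cell, with 1 point per library and lines at the mean of 4 libraries. Right, Crabp1 level on a linear axis in 3 neuron and 3 mesenchyme classes and in pallium, with 1 point per library. Crabp1 climbs to 133 in cells with 7 to 9 markers while Crabp2 stays between 3.75 and 4.8, and the frontonasal points (39.7 to 65.7) lie above the other mesenchyme classes.

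Crabp2 (chr3:87948666-87953376, plus strand), the related binding protein that delivers retinoic acid to its nuclear receptors, was spread over the neural, mesenchymal and epithelial classes. High means were found in roof plate (7.35 ± 2.56, 3 libraries), dorsal hindbrain (8.51, 4.46, 5.67 and 6.17), Hox hindbrain (6.14 ± 2.01, 3 libraries), nasal placode (8.73, 4.07, 7.05 and 3.94), neural crest and glia (5.68 ± 1.97) and pallium (8.17, 3.86, 5.68 and 4.40). Neighbouring classes overlapped down to the floor plate at 2.58, 1.2, 1.68 and 1.71. The floor plate stood apart from erythroid cells, macrophages and endothelium, at 0.347, 0.117 and 0.0699. Part of the spread ran with the library: over all cells Crabp2 was at 5.92, 2.83, 4.40 and 3.34. After thinning, a UMI was found in 76.8% of pallium cells (74.9 to 78.6%) and 6.35% of erythroid cells (2.78 to 12.1%). Nasal placode exceeded other epithelium by 1.30 (SE 0.14, adjusted p = 1.92e-12, edgeR), and epithelium was below mesenchyme by a log2 difference of -0.27 (SE 0.09, adjusted p = 0.00694).

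In that nasal comparison 2 members were higher and 2 lower, beside 21% of all genes. Aldh1a3 was the other higher one, by 0.57 (SE 0.19, adjusted p = 0.0215), and without Apcdd1+/- replicate 2 this was 0.07 (adjusted p = 0.876). Crabp1 was lower in nasal placode, at 0.847, 1.2, 0.740 and 1.10, than in surface ectoderm, at 3.85, 4.72, 3.25 and 4.51, and these classes did not overlap. Against surface ectoderm and epithelium in no finer gate together, the log2 difference of Crabp1 was -1.66 (SE 0.36, adjusted p = 0.000196).

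Rarb, the receptor (chr14:16430839-16819156, minus strand), was a mesenchyme gene in these heads. Periocular mesenchyme was at 0.443, 0.529, 0.285 and 0.484 (0.435 ± 0.106), frontonasal mesenchyme at 0.511, 0.443, 0.385 and 0.373 (0.428 ± 0.0630) and mesenchyme in no finer gate at 0.372, 0.363, 0.311 and 0.264 (0.328 ± 0.05). Periocular and frontonasal cells overlapped, and the frontonasal libraries lay above all libraries of the other mesenchyme. The Dlx1 and Barx1 mesenchyme was low, at 0.0659, 0.0125, 0.0744 and 0.0528, and the frontonasal cells exceeded it (log2 difference 2.79, SE 0.35, adjusted p = 7.81e-10 in edgeR). The 4 mesenchyme gates held 62.6% of the 2523 Rarb UMIs. Mesenchyme was above brain progenitors by 3.11 (SE 0.24, adjusted p = 2.45e-21), and epithelium below mesenchyme by a log2 difference of -1.97 (SE 0.25, adjusted p = 7e-11). After thinning, a UMI was found in 10.9% of frontonasal cells (9.29 to 12.7%), 1.05% of pallium cells (0.661 to 1.59%) and 1 of 166 macrophages. Rarb overlaps Top2b on the opposite strand and the sources used here do not say whether the counting used strand, so reads of the 2 genes may not be told apart.

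Rarb and Cyp26a1, the 2 members with the promoter repeat printed above, thus had different leading classes. In frontonasal against Dlx1 and Barx1 mesenchyme they were called in opposite directions, with log2 differences of 2.79 and -2.26, but the Cyp26a1 call was lost without WT replicate 1 (adjusted p = 0.0550) and its order was reversed in Apcdd1+/- replicate 1.

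The rest of the pathway was read from a list of 17 genes for vitamin A supply, storage and other receptors, of which 15 were tested. The counts below stand beside the share of all genes called in the same comparison. In retina 8 were higher and 2 lower than in other brain regions (all genes 14.8% called), with a median log2 difference of 0.97 beside -0.01 over all genes. Cyp1b1, a P450 known to oxidise retinol, was at 0.279, 0.235, 0.199 and 0.278 in neural retina, and its log2 difference against the other regions was 5.06 (SE 0.42, adjusted p = 1.92e-17). The 4 retina libraries lay close together. The receptor Rxrg was higher by 3.72 and the retinol transporter Stra6 by 2.30.

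In mesenchyme 10 of the 15 were higher and 2 lower than in brain progenitors, where 59.8% of all genes were called (median 0.66, all genes -0.01). The receptor Rarg was higher by 5.11, Dhrs3, which reduces retinaldehyde back to retinol, by 4.59 and Stra6 by 1.72. Frontonasal exceeded Dlx1 and Barx1 mesenchyme in 4 genes and was lower in 0 (all genes 6.83%), among them Dhrs3, higher by 2.39, Stra6, by 2.21, and Fabp5, a fatty acid binding protein that also binds retinoic acid, by 0.28. Rarg was at 0.270, 0.293, 0.256 and 0.262 in frontonasal cells and at 0.203, 0.341, 0.237 and 0.367 in the Dlx1 and Barx1 cells, which overlapped.

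Epithelium had 6 higher and 4 lower than mesenchyme (all genes 51.9%), led by Rxrg at -3.25, Cyp1b1 at 2.72, Rarg at -1.48 and Rdh10, the enzyme that makes retinaldehyde, at 1.09. Nasal placode had 1 higher and 3 lower than other epithelium (all genes 21%), with Cyp1b1 at -3.42 and Rarg at -1.39. Neurons had 6 higher and 4 lower than brain progenitors, a share close to the 67.9% of all genes called, led by Rxrg at 2.28, Rxra at -1.58, Stra6 at 1.48 and Rdh11 at 0.70. Dorsal hindbrain had 1 higher (Rxra, 0.49) and 1 lower (all genes 11.4%), and Hox hindbrain 1 higher (Cyp1b1, 4.15) and 0 lower (all genes 2.51%).

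Genes known to respond to retinoic acid were read from a list of 12, of which 8 were tested. In Hox hindbrain 6 were higher and 0 lower (all genes 2.51% called), with a median log2 difference of 1.79 beside -0.06 over all genes. Hoxb1, a rhombomere gene, was at 2.77, 0.892 and 1.53 in the 3 libraries and higher by 8.69 (SE 0.46, adjusted p = 2e-20), but the class was gated on other Hox genes, so Hoxb1 is not independent of the gate. Zfp703 was higher by 2.57, the Hox cofactor Meis1, at 2.43, 2.23 and 2.00, by 2.42, and its relative Meis2 by 2.16. In dorsal hindbrain 6 were higher and 2 lower (all genes 11.4%), led by Hoxb1 at 6.19, Dkk2 at -2.73, Tgm2 at -2.68 and Meis1 at 2.11.

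Members of this list were also called in other classes. In retina 3 were higher and 1 lower (all genes 14.8%), with Dkk2 at -3.82 and Meis1 at 1.61, and in mesenchyme 4 higher and 1 lower (all genes 59.8%), with Meis1 at -2.23 and Dkk2 at 2.00. Frontonasal was below Dlx1 and Barx1 mesenchyme in 3 genes and above in 0 (all genes 6.83%). Meis2 was at 0.482, 0.679, 0.259 and 0.529 in frontonasal cells against 1.95, 1.97, 1.71 and 1.96, with no overlap. Epithelium had 2 higher and 3 lower than mesenchyme (all genes 51.9%), nasal placode 0 higher and 5 lower than other epithelium (all genes 21%), neurons 3 higher and 0 lower than brain progenitors (all genes 67.9%), and dorsal retina 0 higher and 1 lower (Nr2f1, -1.06) than ventral (all genes 1.18%).

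The genes most like each member over the means of 21 classes were ranked by Pearson's r of log levels among 9519 genes, given without a test since the classes share libraries. Pigmented cells and Hox hindbrain, where Aldh1a3 and Cyp26b1 were highest, had too few cells to be among these classes. Nearest to Aldh1a1 were Dapl1 (0.887), Aldh1a7 (0.833), a close paralog with which reads may be shared, and Trpm3 (0.811). Aldh1a3 was nearest to Dapl1 (0.943), Grb7 (0.922) and Rasef (0.907), and Aldh1a2 to Actc1 (0.827), Tbx18 (0.791) and Egflam (0.766). Dapl1 thus headed the lists of both Aldh1a1 and Aldh1a3. For the clearing enzymes the leading genes were Ccdc80 (0.915) for Cyp26a1, Nuak1 (0.812) for Cyp26b1 and Moxd1 (0.754) for Cyp26c1. Crabp1 was nearest to Ngfr (0.912), Ebf3 (0.911) and Ebf1 (0.906), Crabp2 to Ubp1 (0.948), and Rarb to Myl9 (0.900), Lama2 (0.900) and Dpep1 (0.883).

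Between the genotypes none of the 9 genes passed the test. Over all cells edgeR called 0 of 15966 genes (0%), with 188 at an unadjusted p under 0.05, and DESeq2 called 3. Within neural retina, brain progenitors, mesenchyme, epithelium and neurons edgeR also called 0, with 231, 197, 214, 324 and 264 at an unadjusted p under 0.05, and DESeq2 called 0, 0, 2, 0 and 0. All members' adjusted p-values were 1.00. A difference of the genotype effect between these classes was called for 0 of 12790 genes (0%), with an adjusted p of 1.00 for Aldh1a1 and Cyp26b1. Of the pathway list 0 of 16 tested genes were called, and of the responsive list 0 of 10.

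In all, 5 genotype differences of members had an unadjusted p under 0.05 in edgeR. Over all cells it was 1 of 9 members tested (all genes 188 of 15966). In neural retina it was 0 of 4 (231 of 9483) and in brain progenitors 1 of 7 (197 of 13557). Mesenchyme had 1 of 7 (214 of 12603), epithelium 1 of 7 (324 of 11312) and neurons 1 of 4 (264 of 11993). The test between classes gave such a p for 2 of 7 members, Aldh1a1 and Cyp26b1, and for 530 of 12790 genes. As a share of all UMIs of the library, Aldh1a1 was at 0.0949 and 0.0686 UMIs per 10000 in Apcdd1+/- and at 0.139 and 0.121 in WT. Both Apcdd1+/- libraries were below both WT libraries, with a log2 difference of -0.62 (SE 0.22, unadjusted p = 0.0242, adjusted p = 1.00, edgeR). Without Apcdd1+/- replicate 1 it was -0.92 and passed (adjusted p = 0.00163). In neural retina alone the difference was -0.33 (SE 0.20, adjusted p = 1.00). In brain progenitors, where the gene was near 0, it went the other way, at 1.06 (SE 0.51, adjusted p = 1.00), with both Apcdd1+/- libraries above both WT libraries. Dorsal retina, which held most Aldh1a1 UMIs, gave 33, 15, 32 and 22 of the 9501, 5544, 6258 and 2956 kept cells. The part of this cell mix in the all-cell Aldh1a1 values was not tested. Cyp26b1 in brain progenitors was at 0.0369, 0.104, 0.163 and 0.287, again with Apcdd1+/- below WT (log2 difference -1.66, SE 0.39, unadjusted p = 0.00173, adjusted p = 1.00). Over all cells the Cyp26b1 difference was -0.79 (SE 0.53), and -2.08 without Apcdd1+/- replicate 2. In a pool of cells chosen after seeing the data it was -0.90 (SE 0.30, adjusted p = 1.00, edgeR). This pool left out both hindbrain gates, neural progenitors in no finer gate, cells with markers of more than 1 compartment and cells of no gate. Hox cells also differed between these libraries, with Hoxa2 at 17, 294, 250 and 240 UMIs, and the part of this in the Cyp26b1 values was not tested.

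The other 3 were Cyp26a1 in mesenchyme (log2 difference -0.71, SE 0.29, unadjusted p = 0.0297, edgeR adjusted p = 1.00), Aldh1a1 in epithelium (-1.25, SE 0.47, unadjusted p = 0.0172, edgeR adjusted p = 1.00), with overlapping libraries, and Crabp1 in neurons (0.61, SE 0.22, unadjusted p = 0.0163, edgeR adjusted p = 1.00). Neuronal Crabp1 was at 120 and 125 in Apcdd1+/- and at 92.7 and 71.3 in WT, without overlap. The Pou4f1 neurons differed in their median Crabp1 level between the libraries as given above, and their part in this difference was not tested.

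**Figure D5:**
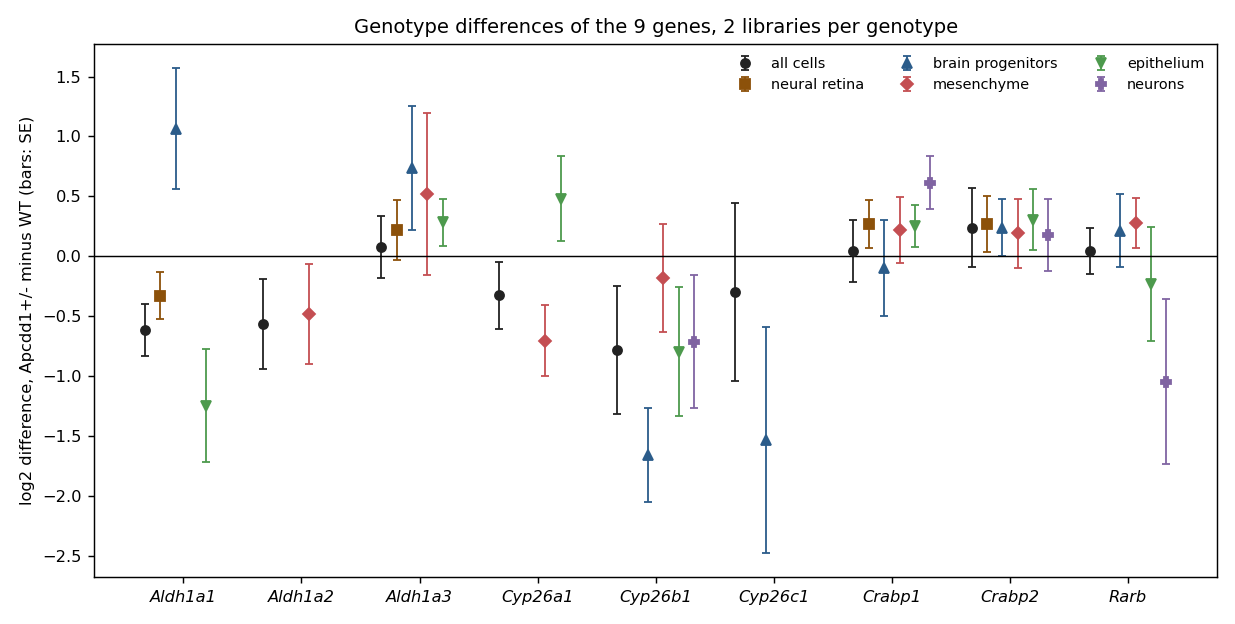
Log2 differences of the 9 genes between Apcdd1+/- and WT (vertical axis, Apcdd1+/- minus WT; bars are standard errors of the edgeR fit) over all cells and in 5 pools of classes, for each gene with enough counts to be tested, with 2 libraries per genotype. No difference passed the adjusted threshold, and the Cyp26b1 value of -1.66 in brain progenitors and the Aldh1a1 value of -1.25 in epithelium lie lowest among those at an unadjusted p under 0.05.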

How the data were processed

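The values analysed were raw UMI counts for each gene in each cell of 4 libraries, as the authors deposited them. Per the file headers, PISA 0.12 wrote the count matrices. The submitters' processing notes name mm10 and Scanpy 1.9.1. Aligner, annotation release, use of strand and cell filters applied earlier were not given in the sources used here. Groups and replicate numbers came from the labels. Per the labels, heads were kept overnight in a preservation solution before dissociation, and dead cells were sorted out with DAPI.

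Cells with at least 500 genes and under 10% mitochondrial UMIs were kept. Each was gated by how many markers of a class had a UMI: 309 cells with markers of more than 1 compartment were left out as likely doublets or mixtures, no doublet caller was run, and 2892 cells entered no gate. The numbers of markers a gate needs were set after marker counts had been seen. Pairs of libraries shared 6 to 25 of 4185 to 7281 bead barcodes listed, and 1 such list was cut short. Some gate markers, 1 pathway gene and results that rest on them are not reported here. Gene positions are from GENCODE vM21 on mm10.

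UMI sums per class and library (at least 20 cells, except where given) were tested with edgeR 4.0.16 in R 4.3.3 (TMM, filterByExpr, quasi-likelihood) with the library as a block. Genotypes were tested on sums per library without a block. P-values were adjusted by Benjamini-Hochberg over all genes tested, at 0.05, and DESeq2 1.42.0 was an alternative. The fits were tested on simulated data. The 9 members are all described; for the pathway and responsive lists, up to 4 genes with the largest absolute differences past the threshold could be named per comparison; the text names fewer in some, and a list gene outside those was chosen after its values were seen. Likeness used log2(level + 0.01) over genes with a level of at least 0.2 in 1 class. The members, lists and gates were chosen with earlier results of these data known.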

Additional observations from a re-analysis of the deposited data

How the results depend on the processing

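Of the 31 called differences of the members between classes, 285 of 309 recomputed values kept the call, 24 lost it and 0 reversed; 8 of the 31 lost it at least once. Besides the losses by library given above, Cyp26b1 in retina (2 UMIs) lost its call without TMM (adjusted p = 0.0535) and without the library block (0.180), Crabp2 in retina with DESeq2 (0.0539), Crabp2 in epithelium with DESeq2 (0.0894) and without TMM (0.182), and Aldh1a3 in nasal placode with DESeq2 (0.325) and without TMM (0.0637). Counts of all called genes that moved by over 1.5 times were Hox hindbrain with DESeq2 (550 against 315) and, without the library block, frontonasal against Dlx1 and Barx1 mesenchyme (479 against 839) and dorsal against ventral retina (85 against 144). Leaving out 1 library gave 1200 to 1400 for retina (1814 with all), 464 to 703 for frontonasal mesenchyme, 1648 to 2223 for nasal placode (2583), 891 to 1122 for dorsal hindbrain (1401), 78 to 111 for dorsal retina and 205 to 306 for Hox hindbrain. The requirement of at least 50 cells per class left no value for several comparisons.

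For the genotypes, where 0 genes were called, no filter on low counts gave 3 over all cells, 1 in retina, 14 in brain progenitors, 19 in mesenchyme, 5 in epithelium and 6 in neurons, and DESeq2 gave 3 over all cells and 2 in mesenchyme. Leaving out 1 library gave 0 to 222 over all cells, 1 to 3 in retina, 0 to 108 in brain progenitors, 2 to 46 in mesenchyme, 0 to 33 in epithelium and 2 to 102 in neurons, with the highest count without Apcdd1+/- replicate 2 in all cells, brain progenitors, mesenchyme and neurons; the lone library left is then assumed to vary like the other genotype's. Equal replicate numbers share only a number in the labels (r = 0.180 across 15966 genes of the difference between replicates 1 and 2 in the 2 genotypes), and a replicate block gave 5 genes over all cells, 1 in retina, 1 in brain progenitors, 27 in mesenchyme and 11 in epithelium. The uncalled log2 differences of 5 members over all cells changed sign with the library left out: Aldh1a3 ran from -0.39 (without Apcdd1+/- replicate 1) to 0.41 (without Apcdd1+/- replicate 2), Cyp26c1 from -1.98 (without Apcdd1+/- replicate 2) to 0.54 (without Apcdd1+/- replicate 1), Crabp1 from -0.27 (without WT replicate 2) to 0.41 (without WT replicate 1), Crabp2 from -0.37 (without Apcdd1+/- replicate 1) to 0.65 (without Apcdd1+/- replicate 2) and Rarb from -0.18 (without WT replicate 2) to 0.29 (without WT replicate 1). The causes were not tested. Aldh1a2, Cyp26a1 and Cyp26c1 had 173, 608 and 144 UMIs in all, which limits the precision of their values.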

Other observations

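Cyp26b1 was also found outside the hindbrain gates. Endothelium was at 0.167, 0.215, 0.188 and 0.469 UMIs per 10000 in Apcdd1+/- replicates 1 and 2 and WT replicates 1 and 2 (0.260 ± 0.141), on 39 UMIs in 210 cells, of which WT replicate 2 held 12 cells. After thinning to 3000 UMIs a Cyp26b1 UMI was found in 5.47% of 201 endothelial cells (exact binomial 95% interval 2.76 to 9.58%) and in 1 of 166 macrophages. Floor plate was at 0, 0.282, 0.206 and 0.287, so the library with the fewest Hox cells had no Cyp26b1 UMI in its 235 floor plate cells. Neural progenitors in no finer gate held 47.1% of all Cyp26b1 UMIs, at 0.0600, 0.352, 0.238 and 0.480. Neural crest and glial cells carried both binding proteins, with Crabp1 at 3.79, 4.85, 6.45 and 12.6 and Crabp2 at 7.19, 3.16, 7.32 and 5.07.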
